A study of Mus musculus with 18 samples.

Results

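Matrix proteases and their inhibitors were followed in the hearts of mice that received the beta-adrenergic agonist isoproterenol (ISO) with or without oral polystyrene (PS) particles. The 9 genes are the matrix metalloproteinases Mmp2 and Mmp14, the ADAMTS proteases Adamts1, Adamts2 and Adamts8, and the inhibitors Timp1, Timp2, Timp3 and Timp4. They were taken as the entries that carry these names in both deposited count tables, and all 9 were among the 14623 genes with enough counts to be tested. The study sequenced poly(A) RNA of heart tissue from male wild-type C57BL/6 mice. All mice received ISO under the skin at 2.5 mg/kg/day for 21 days. In the first group PS of 1 µm was added by gavage, at 50 mg/kg/day for the same 21 days (1 µm PS, n = 6 libraries), and the second received PS of 100 nm at the same dose (100 nm PS, n = 6). The third group received ISO and water by gavage (ISO, n = 6). No mice without ISO were included, so ISO itself is part of every group. The comparisons address what each PS size adds in the ISO-treated heart and whether the sizes differ.

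Matrix metalloproteinases are zinc-dependent enzymes that cleave collagens, fibronectin and other proteins of the extracellular matrix, and in the heart they are made largely by fibroblasts and other non-myocytes. The membrane-bound enzyme encoded by Mmp14 activates the secreted gelatinase encoded by Mmp2, and the Timp2 product takes part in that step as well as inhibiting the enzymes. ADAMTS proteases are secreted enzymes that trim procollagens or cleave proteoglycans, and TIMPs are small proteins that bind and block the active sites of these proteases.

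Total counts ran from 14032257 to 22600570 per library. The libraries came from 2 sequencing providers, with 4 of 1 µm PS, 5 of 100 nm PS and 3 of ISO in batch 1 and 2, 1 and 3 in batch 2. Markers of cardiac myocytes were all detected, with a summed level of 54216 to 141897 counts scaled to a library of 1000000 (CPM) over 11 genes in the 18 libraries. ISO replicate 2 stood apart with 13152 detected genes, where the remaining ISO libraries had 16562 to 17913, and ISO replicate 1 had 42.6% of its counts in protein-coding genes of the mitochondrial genome, where the rest of its group had 15.1% to 24.2%. Across genes, the deviation of a library from the mean of its batch had a Spearman correlation with GC content of 0.12 to 0.37 in the PS libraries and of -0.61 to 0.01 in the ISO libraries, with no overlap. The labels number the libraries within a group and do not say outright that each came from its own mouse, so p-values measure the spread between these libraries.

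Per kilobase of the longest transcript, Timp3, Timp2 and Mmp2 had the highest mean levels of the 9 genes in each group and Adamts8 the lowest. Timp3 averaged 77.8 ± 34.4 CPM per kb in 1 µm PS hearts, 84.6 ± 26.4 in 100 nm PS hearts and 46.2 ± 20 in ISO hearts (SD, n = 6 each). For Timp2 the means were 48.9 ± 5.11 CPM per kb in 1 µm PS hearts, 55.3 ± 12.7 in 100 nm PS hearts and 37.7 ± 6.65 in ISO hearts, and for Mmp2 they were 40.7 ± 12.6, 45.2 ± 10.4 and 24.0 ± 4.47 in the same 3 groups. In ISO hearts the ranges of Timp3 (13.3 to 69.5 CPM per kb), Timp2 (27.9 to 44.9) and Mmp2 (15.9 to 29.1) overlapped between libraries. Within a library, Timp2 was above Mmp2 in 6 of 6 ISO hearts (ratio 1.26 to 1.83), and Timp3 was above Timp2 in all of them except replicate 2. Mmp14, Timp1, Timp4, Adamts1 and Adamts2 had group means between 4.21 and 18.7 CPM per kb, and their ranges overlapped within each group except for Timp4 (7.87 to 25.4) above Adamts2 (2.47 to 5.32) in ISO hearts. Adamts8 averaged 0.714 ± 0.352 CPM per kb in 1 µm PS hearts, 1.27 ± 1.42 in 100 nm PS hearts and 0.255 ± 0.199 in ISO hearts, and its highest library reached 4.12.

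**Figure D1:**
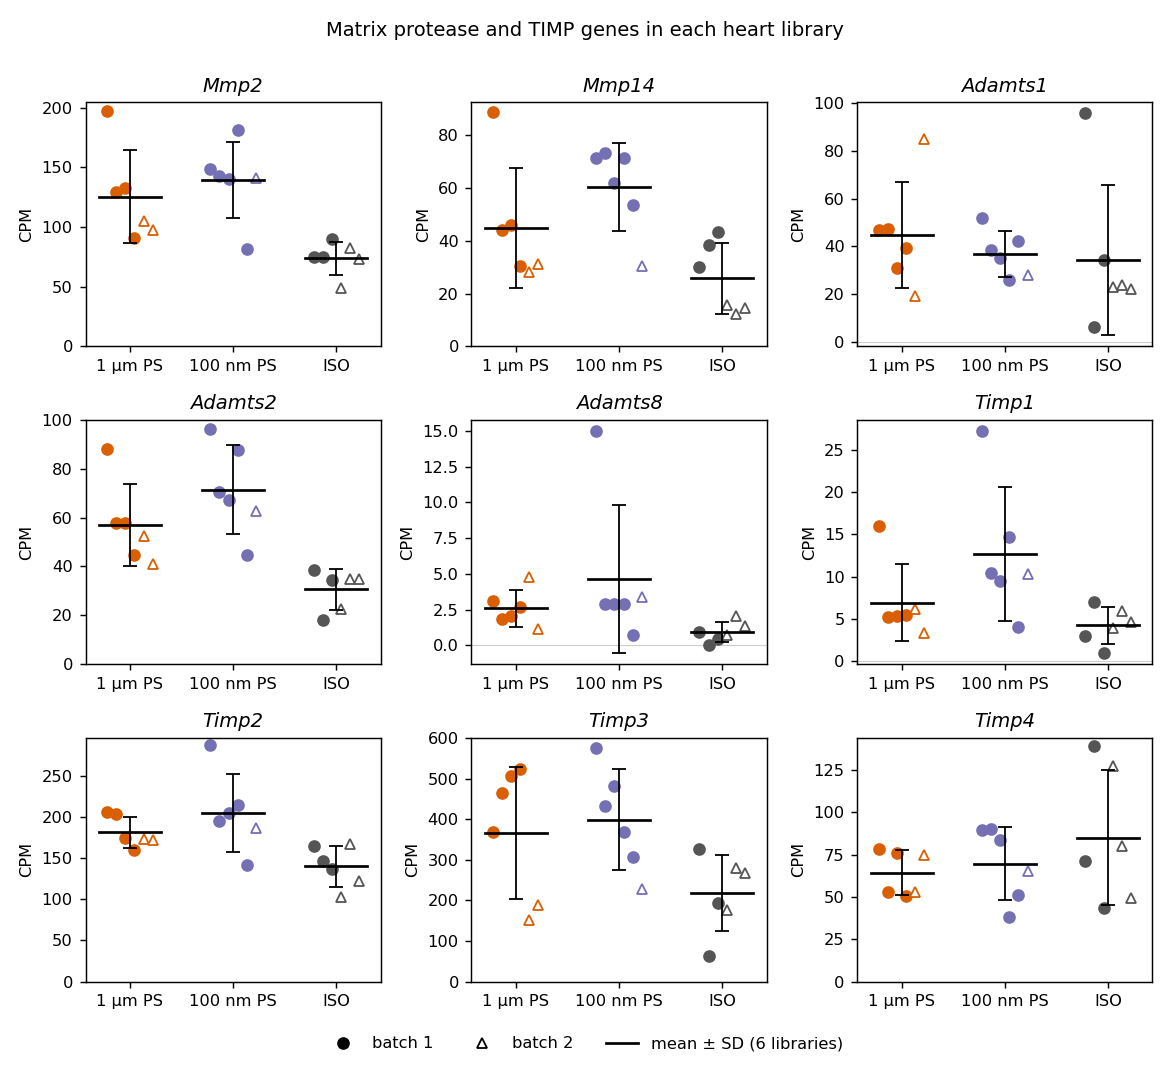
CPM of the 9 protease and TIMP genes in each of the 18 libraries (filled circles, batch 1; open triangles, batch 2), with 1 µm PS, 100 nm PS and ISO from left to right and the mean and SD of 6 libraries as bars. Each panel has its own linear axis, and every Adamts2 library of the PS groups, 41.1 CPM or more, lies above the highest ISO library at 38.7 CPM.

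In 100 nm PS hearts, 4 of the 9 genes rose relative to ISO hearts in the quasi-likelihood test of edgeR (Benjamini-Hochberg adjusted p under 0.05), where 9.57% of all genes tested passed in either direction, 3.88% as higher and 5.69% as lower. These were Mmp2, Mmp14, Adamts2 and Adamts8. In 1 µm PS hearts 3 of the 9 rose, Mmp2, Mmp14 and Adamts2, against 7.39% of all genes tested in either direction, 2.89% as higher and 4.50% as lower. Without ISO replicate 2, 5 passed at 100 nm, with Timp1 added, and the same 3 passed at 1 µm. Without 100 nm PS replicate 1, 2 passed at 100 nm, Mmp14 and Adamts2, and 1 at 1 µm, Adamts2. The number of all genes that rose moved as well, from 567 at 100 nm and 423 at 1 µm with all libraries. It was 742 and 715 without ISO replicate 2, and 191 and 282 without 100 nm PS replicate 1. Without 100 nm PS replicate 6, 1 of the 9 passed at 100 nm, Adamts2, and 53 of all genes rose there. Without 1 µm PS replicate 1, 0 of the 9 passed at 1 µm and 93 of all genes rose there. At 1 µm 0 of the 9 also passed without ISO replicate 4 or without 1 µm PS replicates 2, 3 or 5. None of the 9 fell at either size. Of the 5 proteases, 4 passed at 100 nm and 3 at 1 µm, while 0 of the 4 TIMPs passed at either size, with the smallest adjusted p = 0.0676 for Timp1 at 100 nm. Whether proteases and inhibitors differed in their response was not tested. The median log2 fold change of the 9 genes was 0.66 at 1 µm and 0.84 at 100 nm, against 0.00 and -0.02 over all genes tested, and 8 of the 9 log2 fold changes were above 0 at each size, as were 49.8% of those of all genes at 1 µm and 48.2% at 100 nm. Both PS groups were set against the same 6 ISO libraries, so the comparisons are not independent of each other. When each library was corrected for GC content, 0 of the 9 genes passed at either size (edgeR), and 2 of all genes did at 1 µm and 1 at 100 nm. With that correction 1 of the 9 had an unadjusted p under 0.05 at 1 µm and 4 of the 9 at 100 nm, against 20.4% and 27.2% of all genes. That correction moved the median of all genes to -0.10 at 1 µm and to -0.16 at 100 nm.

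**Figure D2:**
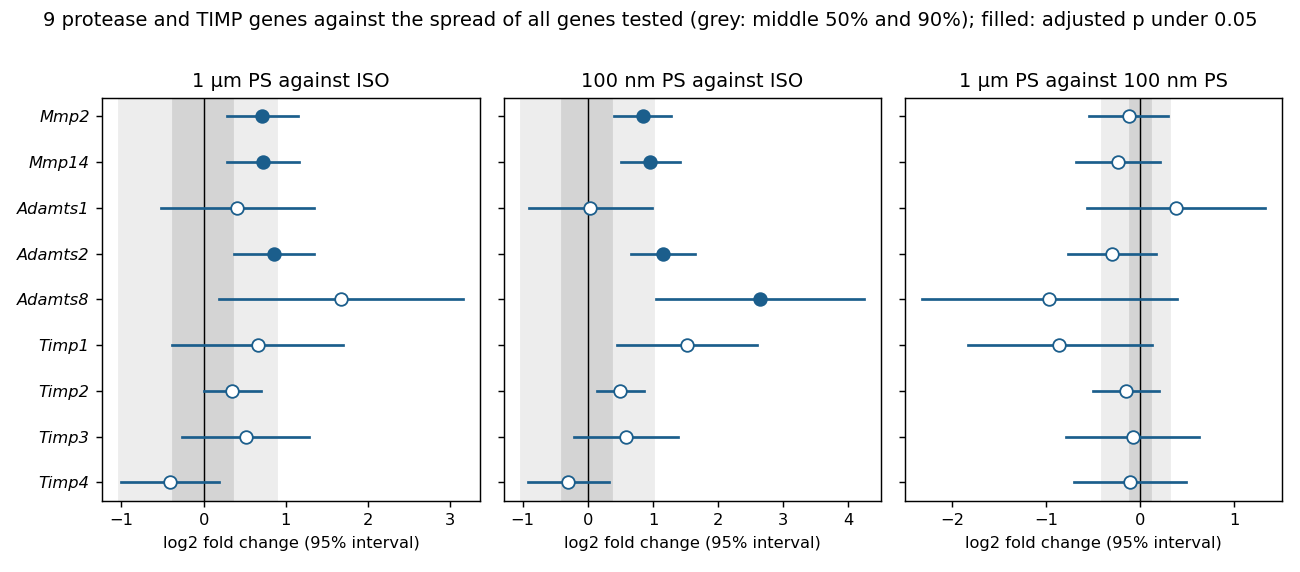
Log2 fold change of each gene with its 95% interval for 1 µm PS against ISO, 100 nm PS against ISO and 1 µm PS against 100 nm PS, filled where the edgeR adjusted p is under 0.05, over grey bands that hold the middle 50% and 90% of all 14623 genes. The filled points are Mmp2, Mmp14 and Adamts2 at 1 µm and those 3 with Adamts8 at 100 nm, and no point is filled in the comparison of sizes.

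Mmp2, on chromosome 8, encodes a secreted gelatinase that degrades denatured collagen and basement membrane proteins. Its lowest, median and highest levels were 91.0, 117 and 197 CPM in 1 µm PS hearts, 82.0, 142 and 181 CPM in 100 nm PS hearts and 48.9, 74.9 and 89.7 CPM in ISO hearts. All 6 libraries of 1 µm PS lay above every ISO library, while 100 nm PS replicate 5 lay within the ISO range and the other 5 above it. Its log2 fold change was 0.71 (SE 0.21, edgeR adjusted p = 0.0435) at 1 µm and 0.84 (SE 0.21, adjusted p = 0.0232) at 100 nm. Within batches it was 0.78 and 0.55 at 1 µm (batch 1 and batch 2) and 0.79 and 1.05 at 100 nm. The 100 nm call was lost without 100 nm PS replicate 1 (0.83, adjusted p = 0.0502) or without replicate 6 (0.75, adjusted p = 0.0874). At 1 µm it passed in 5 of 18 fits that each left out 1 library, and was lowest without 1 µm PS replicate 1 (0.57, adjusted p = 0.101). With the GC correction the value was 0.31 at 1 µm (adjusted p = 0.405) and 0.41 at 100 nm (adjusted p = 0.208).

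Mmp14, on chromosome 14, encodes the membrane-type collagenase that also activates the Mmp2 product. Its lowest, median and highest levels were 28.3, 37.7 and 88.7 CPM in 1 µm PS hearts, 30.3, 66.8 and 73.5 CPM in 100 nm PS hearts and 12.3, 22.9 and 43.4 CPM in ISO hearts. Over both batches the groups overlapped, and the batch 2 libraries lay at the low end of all 3 groups. In batch 2 alone the levels were 28.3 to 31.3 CPM in 1 µm PS hearts and 30.3 CPM in the 100 nm PS heart. They were 12.3 to 15.8 CPM in the 3 ISO hearts of that batch, which holds only 2 libraries of 1 µm PS and 1 of 100 nm PS. In batch 1 the levels were 30.3 to 88.7 CPM in 1 µm PS hearts, 53.7 to 73.5 CPM in 100 nm PS hearts and 30.1 to 43.4 CPM in ISO hearts. The libraries of 1 µm PS and ISO overlapped there. These ranges within a batch describe few libraries, and the share of all genes with separate ranges within a batch was not counted. The log2 fold change was 0.72 (SE 0.21, edgeR adjusted p = 0.0442) at 1 µm and 0.96 (SE 0.22, adjusted p = 0.0171) at 100 nm. Without 100 nm PS replicate 6, its only batch 2 library, the 100 nm value was 0.97 and the adjusted p = 0.0549. At 1 µm the call held in 3 of 18 fits that left out 1 library, with the lowest value without 1 µm PS replicate 1 (0.54, adjusted p = 0.112). The GC correction gave 0.37 (adjusted p = 0.357) at 1 µm and 0.58 (adjusted p = 0.118) at 100 nm.

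Adamts2, on chromosome 11, encodes the procollagen N-proteinase that removes the amino-terminal propeptides of fibrillar procollagens. Its lowest, median and highest levels were 41.1, 55.1 and 88.1 CPM in 1 µm PS hearts, 44.8, 68.9 and 96.1 CPM in 100 nm PS hearts and 17.9, 34.6 and 38.7 CPM in ISO hearts. Neither PS group overlapped with ISO. A gap of this kind, with every PS library above every ISO library, was seen in 2 of the 9 genes at 1 µm (Mmp2 and Adamts2) and in 1 of 9 at 100 nm (Adamts2), against 1.12% and 1.63% of all genes tested. The log2 fold change was 0.85 (SE 0.23, edgeR adjusted p = 0.0336) at 1 µm and 1.16 (SE 0.24, adjusted p = 0.0119) at 100 nm, with 1.03 and 0.58 in batch 1 and batch 2 at 1 µm and 1.26 and 1.03 at 100 nm. At 100 nm it was the only gene of the 9 that passed in all 18 fits that left out 1 library, with the highest adjusted p = 0.0499 without 100 nm PS replicate 6. At 1 µm the call was lost without ISO replicate 4 (0.80, adjusted p = 0.0706) or without 1 µm PS replicates 1 (0.72, adjusted p = 0.0794), 2 (0.86, adjusted p = 0.0562), 3 (0.86, adjusted p = 0.065) or 5 (0.85, adjusted p = 0.0577). With the GC correction its values were 0.52 (adjusted p = 0.179) at 1 µm and 0.80 (adjusted p = 0.0562) at 100 nm.

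Adamts8, on chromosome 9, encodes a secreted protease that is less well characterised than the others. The lowest, median and highest values were 1.11, 2.34 and 4.79 CPM in 1 µm PS hearts, 0.697, 2.91 and 15 CPM in 100 nm PS hearts and 0, 0.832 and 2.06 CPM in ISO hearts. The ISO library at 0 is replicate 2, where 3 counts, the limit that a count of 0 allows, correspond to 0.232 CPM. The 15 CPM of 100 nm PS replicate 1 stood well above the other libraries of that group, which reached 3.38 CPM, and replicate 5 lay within the ISO range. The same replicate 1 was the highest of its group for Adamts1, Adamts2, Timp1, Timp2 and Timp3. Its summed atrial and valve markers stood at 3704 CPM, where the other 5 libraries of the group had 364 to 966 CPM, its adipocyte markers at 88.0 CPM, where the others had at most 6.22 CPM, and its mesothelial markers at 196 CPM, where the others had 31.1 to 115 CPM. The part of these markers in its protease and TIMP levels was not tested. The log2 fold change at 100 nm was 2.64 (SE 0.76, edgeR adjusted p = 0.0386), and 1.82 without 100 nm PS replicate 1 (adjusted p = 0.0942). It passed in 6 of 18 fits that left out 1 library. At 1 µm it was 1.67 (SE 0.71, adjusted p = 0.137). The GC correction gave 2.12 at 100 nm (adjusted p = 0.0822), limma voom gave 1.49 at 100 nm (adjusted p = 0.31), and DESeq2 gave 1.69 at 1 µm (adjusted p = 0.0498). Adamts8 shares 489 exonic bases with the predicted gene Gm29724 on the opposite strand, so part of its counts is uncertain.

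Adamts1, on chromosome 16, encodes a protease that cleaves versican and other proteoglycans. From lowest through median to highest, the levels were 19.3, 43.2 and 84.7 CPM in 1 µm PS hearts, 25.7, 36.8 and 51.9 CPM in 100 nm PS hearts and 6.18, 23.5 and 95.6 CPM in ISO hearts. The ISO group held both extremes, ISO replicate 2 at the low end and ISO replicate 1 at the high end, and every PS library lay between them. Its log2 fold change was 0.41 (SE 0.44, 95% interval -0.52 to 1.34, edgeR adjusted p = 0.579) at 1 µm and 0.03 (SE 0.45, interval -0.91 to 0.98, adjusted p = 0.973) at 100 nm. At 100 nm the sign turned without ISO replicate 2 (-0.24, adjusted p = 0.707) and without ISO replicates 4, 5 or 6, 100 nm PS replicate 1 or 1 µm PS replicate 6. At 1 µm it turned without 1 µm PS replicate 6 (-0.12, adjusted p = 0.881), the library at 84.7 CPM.

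None of the 4 TIMPs passed, and they differed in how far they came from it. Timp1, on the X chromosome, encodes an inhibitor that is induced in many injured tissues. It had lowest, median and highest levels of 3.23, 5.37 and 16.0 CPM in 1 µm PS hearts, 3.98, 10.4 and 27.3 CPM in 100 nm PS hearts and 0.918, 4.25 and 7.03 CPM in ISO hearts. At 100 nm, 5 of 6 libraries lay above the ISO range, with replicate 5 within it, whereas at 1 µm replicate 1 alone did. The log2 fold change was 0.66 (SE 0.50, edgeR adjusted p = 0.408) at 1 µm and 1.52 (SE 0.51, adjusted p = 0.0676) at 100 nm. At 100 nm it passed without ISO replicate 2 (1.81, adjusted p = 0.046) and without 1 µm PS replicate 1 (1.62, adjusted p = 0.0437), and with DESeq2 (1.48, adjusted p = 0.0211). These were 2 of 18 fits that left out 1 library. It did not pass at 100 nm with limma voom (1.41, adjusted p = 0.204) or with the GC correction in edgeR (1.16, adjusted p = 0.154). The GC correction gave 0.34 at 1 µm (adjusted p = 0.724). Within batches the 1 µm value was 1.17 in batch 1 and -0.05 in batch 2, and the 100 nm value was 1.88 and 1.11.

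Timp2, on chromosome 11, encodes the inhibitor that also joins the Mmp14 product in activating the Mmp2 product. Timp2 had lowest, median and highest levels of 160, 173 and 206 CPM in 1 µm PS hearts, 142, 200 and 287 CPM in 100 nm PS hearts and 103, 141 and 167 CPM in ISO hearts. In each PS group 5 of 6 libraries lay above the ISO range. The log2 fold change was 0.35 (SE 0.17, edgeR adjusted p = 0.182) at 1 µm and 0.50 (SE 0.17, adjusted p = 0.0698) at 100 nm, the smallest SE among the 9 genes. The 100 nm value passed without ISO replicate 5 (0.57, adjusted p = 0.0411), without 100 nm PS replicate 5 (0.58, adjusted p = 0.0448) and with DESeq2 (0.48, adjusted p = 0.036). It passed in 2 of 18 fits that left out 1 library. With the GC correction it was 0.02 at 1 µm and 0.14 at 100 nm.

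Timp3, on chromosome 10, encodes the inhibitor that is held in the matrix and that also blocks ADAM and ADAMTS proteases. Its lowest, median and highest levels were 151, 417 and 524 CPM in 1 µm PS hearts, 229, 401 and 576 CPM in 100 nm PS hearts and 62.8, 230 and 328 CPM in ISO hearts. The batches went in different directions. In batch 1 the levels were 368 to 524 CPM in 1 µm PS hearts, 306 to 576 CPM in 100 nm PS hearts and 62.8 to 328 CPM in ISO hearts, whereas in batch 2 they were 151 to 189 CPM in 1 µm PS hearts, 229 CPM in the 100 nm PS heart and 177 to 280 CPM in ISO hearts. The log2 fold change was 1.25 in batch 1 and -0.53 in batch 2 at 1 µm, and 1.14 and -0.07 at 100 nm. The batch-by-group term at 1 µm, -1.76, did not pass (edgeR adjusted p = 0.173). Over both batches the values were 0.51 (SE 0.37, edgeR adjusted p = 0.387) at 1 µm and 0.59 (SE 0.38, adjusted p = 0.315) at 100 nm, and without ISO replicate 2, the lowest library, they were 0.17 and 0.23. Timp3 lies within Syn3 on the opposite strand and shares 1733 exonic bases with it, and the sources used here do not say whether strand was used in counting. Counts of Syn3 were 0 to 31 in batch 1 and 5 to 238 in batch 2, against 813 to 12285 and 2283 to 4138 for Timp3.

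Timp4, on chromosome 6, encodes the inhibitor known for its high level in the heart. Its lowest, median and highest levels were 50.7, 63.9 and 78.3 CPM in 1 µm PS hearts, 38.0, 74.6 and 89.8 CPM in 100 nm PS hearts and 43.2, 75.6 and 139 CPM in ISO hearts. It was the only gene of the 9 with negative values in both comparisons with ISO, -0.41 (SE 0.29, 95% interval -1.01 to 0.19, edgeR adjusted p = 0.373) at 1 µm and -0.30 (SE 0.30, interval -0.92 to 0.33, adjusted p = 0.532) at 100 nm. The ISO range was the widest, with replicates 2 and 4 at 139 and 127 CPM, and all 1 µm PS libraries lay within it. Without ISO replicate 2 the values were -0.15 at 1 µm and -0.01 at 100 nm. Timp4 shares 90 exonic bases with Syn2 on the opposite strand, whose counts reached 131, against at least 717 for Timp4.

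**Figure D3:**
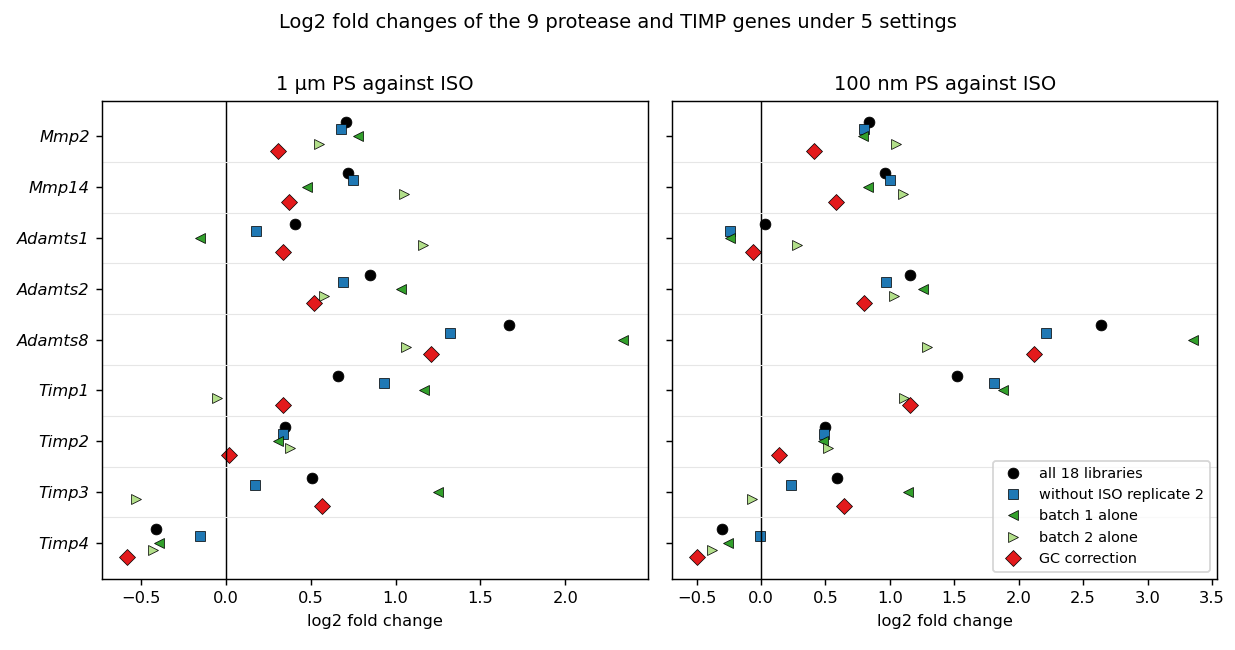
Log2 fold changes of the 9 genes for 1 µm PS against ISO (left) and 100 nm PS against ISO (right) over all 18 libraries, without ISO replicate 2, in each batch alone and with the GC correction. Timp3 and Adamts1 have batch values on opposite sides of 0 in both panels, Timp4 lies below 0 in all settings shown, and the red diamonds of Mmp2, Mmp14, Adamts2 and Adamts8 lie left of the black circles.

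Comparing the sizes directly, 0 of the 9 genes passed for 1 µm PS against 100 nm PS, and 0% of all genes tested did by edgeR, DESeq2 or limma voom. An unadjusted edgeR p under 0.05 was found for 49 genes (0.335%), none of them among the 9, where chance alone gives about 1 in 20. That count depended on the fit. With only the groups compared it was 282 genes and 0 of the 9, and with limma voom 629 genes and 3 of the 9. As the main fit gave fewer small p than chance does, their scarcity says little about particle size. All adjusted p in edgeR were 1. Only the Adamts1 value was positive (0.38, 95% interval -0.57 to 1.33), that is 1 of 9, where 52.6% of all genes were. The intervals still allow sizeable differences, with -0.97 (-2.32 to 0.39) for Adamts8 and -0.86 (-1.83 to 0.12) for Timp1, which have few counts. That of Adamts1, with at least 80 counts in each library, was about as wide as that of Timp1. Without 100 nm PS replicate 1 these values were -0.06 for Adamts8 and -0.50 for Timp1, and without 1 µm PS replicate 1 that of Timp1 was -1.33. They were narrower for Mmp2 (-0.12, -0.55 to 0.30), Mmp14 (-0.24, -0.68 to 0.21), Adamts2 (-0.30, -0.77 to 0.17) and Timp2 (-0.15, -0.50 to 0.20). Timp3 was at -0.08 (-0.79 to 0.63) and Timp4 at -0.11 (-0.71 to 0.49). A p that misses the threshold does not show that the sizes act alike.

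The make-up of the TIMP transcripts was described per kilobase, with no test. The 4 TIMPs summed to 146 ± 36.3 CPM per kb in 1 µm PS hearts, 167 ± 47.5 in 100 nm PS hearts and 104 ± 19.3 in ISO hearts (SD, n = 6 each). Timp3 made up a median of 52.6% of the sum in 1 µm PS hearts, 51.3% in 100 nm PS hearts and 47.2% in ISO hearts, but 15.5% in ISO replicate 2, where Timp2 led with 45.8%. Timp2 also exceeded Timp3 in the batch 2 libraries of both PS groups, at 44.7% to 49.0% against 33.5% to 38.7% in 1 µm PS hearts and at 41.1% against 39.7% in the 100 nm PS heart. Timp1 reached 10.9% in 1 µm PS replicate 1 and 12.6% in 100 nm PS replicate 1, and 1.20% to 9.25% in ISO hearts. Relative to the sum of Mmp2 and Mmp14, the TIMP sum was 2.83 ± 0.883 in 1 µm PS hearts, 2.62 ± 0.533 in 100 nm PS hearts and 3.42 ± 0.986 in ISO hearts, with overlapping ranges of 1.82 to 4.35, 1.97 to 3.5 and 2.04 to 4.48. The ratio of Timp2 to Mmp2 was 1.26 ± 0.236 in 1 µm PS hearts, 1.25 ± 0.231 in 100 nm PS hearts and 1.59 ± 0.220 in ISO hearts, and these ranges overlapped too. The ratio of Adamts2 to Mmp2 stayed in a narrow range in 1 µm PS hearts, 0.178 to 0.211, and ran from 0.189 to 0.274 in 100 nm PS hearts and from 0.101 to 0.218 in ISO hearts.

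**Figure D4:**
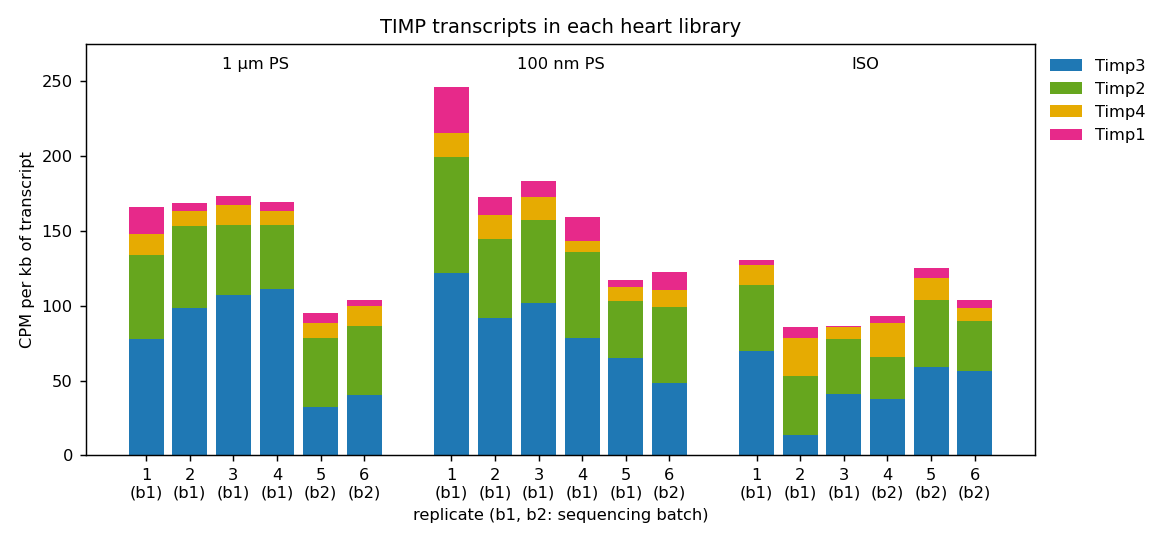
Summed CPM per kb of the 4 TIMP transcripts in each library, stacked by gene, with 1 µm PS, 100 nm PS and ISO from left to right and the replicate and batch under each bar. ISO replicate 2 has a small Timp3 part, 15.5% of its sum, and the batch 2 libraries of the PS groups have lower sums, 95.2 to 122 CPM per kb, than most batch 1 libraries of the same groups.

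Across the 18 libraries, with batch means removed, Mmp2, Adamts2, Adamts8 and Timp2 varied together. Spearman's rho of log2 CPM was 0.96 for Mmp2 and Adamts2, 0.93 for Adamts2 and Adamts8, 0.87 for Mmp2 and Timp2, and 0.80 for Mmp2 and Mmp14. For Mmp14 and Timp3 it was -0.01, and Timp4 had values from -0.06 to 0.23 with the other 8 genes. Without ISO replicate 2 Mmp14 and Timp3 were at -0.09 and the Timp4 values ran from 0.05 to 0.32. These values are descriptions over libraries that share groups, depth and GC deviation, and the difference between groups is part of them. Among 12488 genes compared, the genes most like Mmp2 were Col6a1 (0.98), Col5a1 (0.97) and Adamts2 (0.96), and those most like Adamts2 were Col1a2 (0.98), Col1a1 (0.98) and Col5a1 (0.97). Timp2 was most like Fn1 (0.97), Prelp (0.95) and Gpr153 (0.92), and Adamts8 most like Fstl3 (0.95), Ltbp3 (0.95) and Evc2 (0.94). For Mmp14 the closest were Axl (0.88), Tril (0.88) and Septin9 (0.87), and for Timp3 Susd5 (0.94), Bmp4 (0.94) and Fmo2 (0.92). Maged2 (0.91) and Serping1 (0.89) were among the genes most like Timp1. Adamts1 was most like Psat1 (0.86), the immediate early gene Fosb (0.86) and Ppp1r21 (0.85), and Timp4 most like Lxn (0.87), Zfhx3 (0.84) and Gng2 (0.84). Without ISO replicate 2 these values for the most similar genes changed by at most 0.03.

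**Figure D5:**
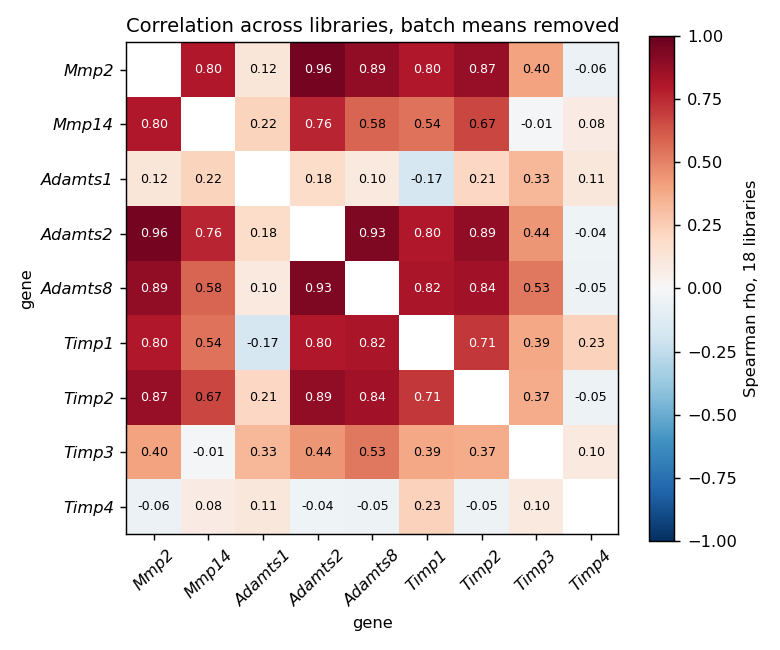
Spearman's rho between the 9 genes across 18 libraries, from log2 CPM with the batch means removed. Mmp2, Adamts2, Adamts8, Timp1 and Timp2 form a block of values of 0.71 or more, and the rows of Adamts1 and Timp4 hold values between -0.17 and 0.33.

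Promoter sequence was available for 7 of the 9 genes, as the 250 bases before the transcription start in RefSeq's GRCm38.p6. Those of Mmp14 and Adamts2, which rose at both sizes, are shown with those of Timp1 and Timp4, which did not pass and lay at opposite ends of the TIMP values. Capitals mark the letters GGGCGG, the core of the SP1 motif, or their reverse complement, CCGCCC. The windows are chr14:54431348-54431597 (plus strand) for Mmp14, chr11:50601835-50602084 (plus strand) for Adamts2, chrX:20869916-20870165 (plus strand) for Timp1 and chr6:115252206-115252455 (minus strand) for Timp4.
Mmp14 promoter: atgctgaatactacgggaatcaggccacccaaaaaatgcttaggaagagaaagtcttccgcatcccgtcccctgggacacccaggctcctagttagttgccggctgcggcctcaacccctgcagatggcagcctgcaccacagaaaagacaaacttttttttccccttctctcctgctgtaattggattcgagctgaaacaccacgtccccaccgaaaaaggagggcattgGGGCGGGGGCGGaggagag
Adamts2 promoter: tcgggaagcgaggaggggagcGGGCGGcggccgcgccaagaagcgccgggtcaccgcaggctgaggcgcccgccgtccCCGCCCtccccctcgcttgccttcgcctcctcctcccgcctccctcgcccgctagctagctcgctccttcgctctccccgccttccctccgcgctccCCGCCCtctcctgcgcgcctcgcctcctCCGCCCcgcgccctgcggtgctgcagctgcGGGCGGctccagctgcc
Timp1 promoter: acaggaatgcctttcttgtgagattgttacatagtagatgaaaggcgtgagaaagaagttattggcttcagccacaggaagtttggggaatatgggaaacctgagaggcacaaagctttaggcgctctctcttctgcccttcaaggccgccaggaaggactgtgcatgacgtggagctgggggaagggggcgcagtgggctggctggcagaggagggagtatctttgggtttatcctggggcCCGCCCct
Timp4 promoter: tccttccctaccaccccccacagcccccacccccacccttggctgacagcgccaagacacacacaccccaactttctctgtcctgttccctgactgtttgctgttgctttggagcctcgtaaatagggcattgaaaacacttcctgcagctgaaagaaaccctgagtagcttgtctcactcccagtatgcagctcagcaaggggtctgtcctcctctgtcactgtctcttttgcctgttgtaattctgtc
The Adamts2 window held 5 matches, that of Mmp14 2 adjacent ones and that of Timp1 1, and these letters did not occur in that of Timp4. Of the 7 windows 6 held a match, where 32.7% of 32851 promoters of the same length did. The GC content was 55.2% for Mmp14, 78% for Adamts2, 54.4% for Timp1 and 53.6% for Timp4, against a median of 52.4% over all promoters, and GC-rich windows hold this motif more readily. The AP-1 letters TGANTCA were found in 0 of the 7 windows and in 6.7% of all promoters, and the SMAD letters CAGACA in 0 of 7 and in 17.1%. The TATA letters TATAAA were found in 1 of 7, that of Adamts1, and in 12.4% of all promoters. All motifs were searched on both strands. A match describes letters and not binding.

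The wider protease system was described from lists chosen with earlier results of these data known, using the same fit, and its counts stand against 2.89% of all genes tested that rose at 1 µm and 3.88% at 100 nm. Of 11 other matrix metalloproteinases tested, 0 passed at 1 µm and 1 rose at 100 nm, Mmp23 (log2 fold change 1.10, SE 0.33, edgeR adjusted p = 0.0455), a membrane-bound metalloproteinase. Mmp9, the gelatinase of neutrophils and macrophages, was at 0.990 ± 0.540 CPM in 1 µm PS hearts, 1.17 ± 0.690 CPM in 100 nm PS hearts and 0.638 ± 0.616 CPM in ISO hearts, and did not pass. Mmp3, or stromelysin, at 5.51 ± 1.83, 7.78 ± 4.69 and 4.73 ± 1.47 CPM in the same 3 groups, and Mmp13, a collagenase, at 0.555 ± 0.25, 0.763 ± 0.269 and 1.58 ± 1.47 CPM, did not pass either. Of 18 other ADAMTS and ADAMTS-like genes, 1 rose at each size, Adamtsl2, which encodes a secreted glycoprotein without protease activity (1.08, SE 0.22, adjusted p = 0.0137 at 1 µm; 1.48, SE 0.23, adjusted p = 0.0093 at 100 nm). Adamts5, an aggrecanase, had -0.77 at 1 µm (adjusted p = 0.0615) and -0.65 at 100 nm (adjusted p = 0.103). Of 8 ADAM sheddases, Adam15 rose at each size (0.80, SE 0.20, adjusted p = 0.0278 at 1 µm; 0.98, SE 0.21, adjusted p = 0.0148 at 100 nm).

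The procollagen C-proteinase Bmp1, which removes the carboxy-terminal propeptides at the other end of the molecules that the Adamts2 product trims, rose at 1 µm (0.73, SE 0.18, edgeR adjusted p = 0.0257) and at 100 nm (0.89, SE 0.18, adjusted p = 0.0125). Its enhancer Pcolce also rose at each size, averaging 124 ± 19.3 CPM in 1 µm PS hearts, 137 ± 23.6 CPM in 100 nm PS hearts and 69.6 ± 31.6 CPM in ISO hearts (n = 6 each; adjusted p = 0.0282 and 0.0165 by edgeR), which made 2 of 5 genes of that list. Of 11 other protease inhibitors and plasmin system genes, 0 passed at 1 µm and 1 rose at 100 nm, Serpinf1 (1.36, SE 0.32, adjusted p = 0.0192). Reck, a membrane-anchored inhibitor of matrix metalloproteinases, averaged 13.4 ± 1.78 CPM in 1 µm PS hearts, 15.4 ± 2.93 CPM in 100 nm PS hearts and 8.95 ± 4.86 CPM in ISO hearts, and did not pass. Of 8 genes of protease activation and uptake, Lrp1, the receptor that takes up proteases and protease-inhibitor complexes, rose at each size (0.87, SE 0.24, adjusted p = 0.0345 at 1 µm; 0.99, SE 0.25, adjusted p = 0.022 at 100 nm). Furin, the convertase that cuts the propeptides of the Mmp14 product and of ADAMTS proteases, had 0.72 at 1 µm (adjusted p = 0.105) and 0.51 at 100 nm (adjusted p = 0.237).

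Of 17 genes for matrix substrates of these enzymes, 3 rose at 1 µm and 10 at 100 nm, and 0 fell. Col4a1, a basement membrane collagen, rose by 0.82 (SE 0.21, edgeR adjusted p = 0.0286) at 1 µm and by 0.97 (SE 0.22, adjusted p = 0.0166) at 100 nm, and Col5a1, a fibrillar collagen, by 1.11 (SE 0.30, adjusted p = 0.0359) and 1.36 (SE 0.32, adjusted p = 0.0182). Fn1, or fibronectin, averaged 146 ± 48.6 CPM in 100 nm PS hearts and 70.3 ± 10 CPM in ISO hearts (1.03, SE 0.21, adjusted p = 0.0119). The median of the list was 0.88 at 1 µm and 1.13 at 100 nm, against 0.00 and -0.02 over all genes. Without ISO replicate 2 the counts were 5 at 1 µm and 10 at 100 nm, and without 100 nm PS replicate 1 they were 2 and 4. Over all genes, 715 rose at 1 µm and 742 at 100 nm without ISO replicate 2. Without 100 nm PS replicate 1 these numbers were 282 and 191, and with all 18 libraries 423 and 567. In the other lists, leaving out ISO replicate 2 gave 2 matrix metalloproteinases and 2 inhibitor or plasmin system genes that rose at each size. That fit also gave 1 ADAM sheddase that fell at each size and 1 activation or uptake gene that fell at 1 µm. Without 100 nm PS replicate 1, 0 other matrix metalloproteinases and 0 activation or uptake genes passed at 100 nm. With the GC correction the counts of substrates were 0 and 0, while their median was 0.42 at 1 µm and 0.76 at 100 nm, against -0.10 and -0.16 over all genes, with 16 and 17 of the 17 above 0. No gene of the other pathway lists passed under that correction either.

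Markers of other cells moved in the same libraries, and here too 2.89% of all genes tested rose at 1 µm and 3.88% at 100 nm. Of 11 fibroblast markers, 1 rose at 1 µm and 5 at 100 nm, and the list's summed level was 3094 to 3876 CPM in 1 µm PS hearts, 2966 to 4708 CPM in 100 nm PS hearts and 2091 to 3429 CPM in ISO hearts. Of 9 markers of activated fibroblasts, 1 rose at 1 µm and 5 at 100 nm, with sums of 502 to 998 CPM in 1 µm PS hearts, 380 to 1154 CPM in 100 nm PS hearts and 222 to 577 CPM in ISO hearts. Of 11 smooth muscle and pericyte markers 3 rose at 1 µm and 4 at 100 nm, and of 12 endothelial markers 1 and 3. Their summed levels were 3229 to 5461 and 2397 to 4013 CPM in 1 µm PS hearts, 2766 to 4344 and 2663 to 4399 CPM in 100 nm PS hearts, and 2469 to 3520 and 2220 to 3652 CPM in ISO hearts. Of 11 cardiac myocyte markers 1 fell at each size, Pln, which encodes phospholamban (-0.72, SE 0.21, edgeR adjusted p = 0.0438 at 1 µm; -0.91, SE 0.22, adjusted p = 0.0205 at 100 nm). The list's median sum was 71494 CPM in 1 µm PS hearts, 67841 CPM in 100 nm PS hearts and 106689 CPM in ISO hearts. The ranges overlapped, at 62210 to 141897, 54420 to 105489 and 54216 to 120478 CPM. Its median log2 fold change was -0.36 at 1 µm and -0.42 at 100 nm, with 3 of 11 above 0 at each size. Without ISO replicate 2 these medians were -0.06 and -0.09. None of these lists had a marker at 0 throughout a group. Of 6 atrial myocyte and valve markers tested, 0 passed at 1 µm and 2 rose at 100 nm, Dkk3 and Myl4, and without ISO replicate 2, or without 100 nm PS replicate 1, neither comparison had a call. Of 10 mesothelial and epicardial markers 0 passed, with median log2 fold changes of 1.04 at 1 µm and 1.84 at 100 nm and summed levels of 21.0 to 109 CPM in 1 µm PS hearts, 31.1 to 196 CPM in 100 nm PS hearts and 10 to 158 CPM in ISO hearts. With all 18 libraries, no marker of macrophages (11 tested), Schwann cells (6), erythroid cells (6), lymphocytes (4), neutrophils (3) or adipocytes (1) passed at either size in edgeR. Without ISO replicate 2, 3 fibroblast and 4 activated fibroblast markers rose at 100 nm and 1 and 1 at 1 µm, 5 smooth muscle and pericyte and 2 endothelial markers rose at 1 µm. That setting also gave 1 Schwann cell marker that rose at each size, 1 mesothelial marker that rose at 100 nm and 1 lymphocyte marker that rose at 1 µm. Without 100 nm PS replicate 1, the markers that rose at 100 nm were 2 of fibroblasts, 2 of activated fibroblasts, 2 of smooth muscle and pericytes and 1 of endothelium, and Pln no longer passed at 1 µm. Of all genes, 742 rose at 100 nm and 715 at 1 µm without ISO replicate 2. Without 100 nm PS replicate 1 these were 191 and 282, and with all 18 libraries 567 and 423. With the GC correction 0 markers of any cell list passed, while the median of the activated fibroblast markers was 1.11 at 1 µm and 1.79 at 100 nm, with 9 of 9 above 0 at each size, against 1.42 and 1.95 without it. The part of these cells in the protease values was not tested, and in bulk tissue fewer cells of a type and less RNA per cell cannot be told apart.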

How the data were processed

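Heart RNA was sequenced as 18 poly(A) libraries by 2 providers, taken as batches, per the labels' protocols. The authors deposited raw counts per gene for batch 1 (Entrez numbers) and estimated counts per gene for batch 2 (Ensembl IDs), and rounding to whole numbers here changed 19.6% of its nonzero values. Tools named, per the submitters' processing notes, are featureCounts 1.5.0-p3, StringTie 1.3.3b, HISAT2 2.0.5, DESeq2 and fastp, with the builds mm39 and GRCm39 and no role for any. Strand and the counter of batch 2 are not given in the sources used here. Batch 1 has 215 unnamed entries (0.16% to 0.39% of counts), which were dropped. Joining the tables gave 35560 genes, 22146 by Entrez and Ensembl pairs of GENCODE M21 and 13414 by symbol, which kept 98.9% to 99.5% of counts in batch 1 and, in batch 2, 93.1% to 95.8% in PS and 85.2% to 87.4% in ISO libraries. Among 23 pairs of libraries compared none looked like a duplicate (lowest chi-square per gene 14.0).

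The joined counts went into edgeR 4.0.16 (R 4.3.3), with TMM factors, filterByExpr with a minimum count of 10 (14623 genes), group and batch as terms over 18 libraries, the robust quasi-likelihood test with 14 residual degrees of freedom, and Benjamini-Hochberg adjustment over all genes, with an adjusted p under 0.05 as passed. The script was tested on simulated data. CPM are counts scaled by TMM library size. Lengths and GC content came from the longest transcript of each gene, which 99.8% of genes had. The GC correction was an offset from a spline with 5 degrees of freedom. Correlations used log2 CPM (prior count 2) less the batch mean, over genes with a mean of at least 1 CPM. The alternatives were other scalings and filters, DESeq2 1.42.0, limma 3.58.1 voom, a model without batch, batch 1 or batch 2 alone, fits to only the groups compared, a replicate block, an adjusted p under 0.1, the GC correction, and leaving libraries out. Text names all 9 genes, at most 3 passed genes of a pathway list and 2 of a cell list by smallest p, and the 3 genes most like each of the 9, of which 1 is not reported here. Mmp3, Mmp9, Mmp13, Adamts5, Reck, Furin and the overlapping Syn2 and Syn3 fall outside that rule and were named after their values were seen. The genes, lists and alternatives were chosen with earlier results of these data known.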

Additional observations from a re-analysis of the deposited data

Results flagged for a closer look

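In 27 sets of 6 libraries (9 genes in 3 groups), 4 values lay far from the other 5 of their group by Dixon's test on log2 CPM, and chance gives about 1 in 20. On the CPM scale none of these 4 did, and 5 other values lay far above their groups: 1 µm PS replicate 1 for Mmp14 (88.7 CPM), Adamts2 (88.1 CPM) and Timp1 (16.0 CPM), 100 nm PS replicate 1 for Adamts8 (15 CPM) and ISO replicate 1 for Adamts1 (95.6 CPM). Mmp2 was at 82.0 CPM in 100 nm PS replicate 5, against 140 to 181 CPM in the other 100 nm PS libraries, and at 48.9 CPM in ISO replicate 4, where the other 5 had 73.0 to 89.7 CPM. Mmp14 was at 30.3 CPM in 100 nm PS replicate 6, against 53.7 to 73.5 CPM in the others. That library is the only one of its group from batch 2, where Mmp14 was at 28.3 to 31.3 CPM in 1 µm PS hearts and at 12.3 to 15.8 CPM in ISO hearts. Timp3 was at 62.8 CPM in ISO replicate 2, where the other 5 had 177 to 328 CPM.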

How the results depend on the processing

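The direction of Mmp2, Mmp14, Adamts2 and Adamts8 against ISO was the same in the 15 other settings and in the 18 fits that left out 1 library, at both sizes, whereas their calls were not. Of the 9 genes at 100 nm (4 passed), 0 passed with no batch term, in batch 2 alone, with the replicate block, with the GC correction, and with that correction without ISO replicate 2, 1 passed in batch 1 alone, and 2 without ISO replicates 1 and 2. At 1 µm (3 passed), 1 passed with no filter, and 0 with limma voom, no batch term, batch 1 or batch 2 alone, the replicate block, only the groups compared, ISO replicates 1 and 2 left out, and both GC corrections. Leaving out 1 library gave 1 to 5 at 100 nm, with 1 without 100 nm PS replicate 6 and 2 without 100 nm PS replicate 1, and 0 to 3 at 1 µm.

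Over all genes, 1399 passed at 100 nm. That count was 717 with no filter, 2607 with DESeq2, 0 with no batch term, 7 in batch 2 alone, 364 with only the groups compared, 0 with the replicate block, 2643 at an adjusted p under 0.1, 606 without ISO replicates 1 and 2, 1 with the GC correction and 0 with it and without ISO replicate 2, and 170 to 2283 with 1 library left out. At 1 µm 1081 passed, with 481, 2322, 0, 11, 0, 0 and 2327 under the first 7 of these settings, 598 in batch 1 alone, 2 and 3 with the GC corrections, and 265 to 2334 with 1 library left out. Between the sizes 0 genes passed, 1 in batch 2 alone and 0 to 0 with 1 library left out.

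Signs turned for 4 genes. Timp4 at 100 nm was 0.01 with limma voom, 0.07 with the replicate block, 0.02 without ISO replicates 1 and 2 and 0.04 with the GC correction without ISO replicate 2. Adamts1 at 100 nm was -0.24 in batch 1, -0.08 with only the groups compared, -0.06 with the GC correction and -0.30 with it and without ISO replicate 2, and at 1 µm -0.15 in batch 1. In batch 2 alone Timp3 was -0.07 at 100 nm and -0.53 at 1 µm, and Timp1 was -0.05 at 1 µm, and Timp3 between the sizes was 0.11 in batch 1. With 1 library left out, Adamts1 ran from -0.24 to 0.80 at 100 nm, from -0.12 to 1.06 at 1 µm and from -0.02 to 0.51 between the sizes, and Timp3 from -0.18 to 0.04 between the sizes. Other than the fits that hold fewer libraries or genes, the cause of these changes was not tested.

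The replicate numbers showed no sign of pairing. Of 18 same-numbered pairs 3 correlated over 0.1 (-0.44 to 0.23), and 0 libraries correlated best with their own number. Why calls were lost under the block was not tested. Depth limits Adamts8 and Timp1, whose counts started at 0 and 18. The group and the GC deviation of the libraries cannot be told apart here, and batch 2 holds 1 library of 100 nm PS. The list counts without ISO replicate 2, without 100 nm PS replicate 1 and with the GC correction were chosen after seeing the data.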
